A study of Mus musculus with 4 samples.

Results

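The 9 genes described here are Cdkn2a, Cdkn2b, Fbxw7, Phf6, Etv6, Cnot3, Dnm2, Ezh2 and Suz12, which are often deleted or mutated in T-cell acute lymphoblastic leukaemia (T-ALL). They were taken by symbol from the 33114 named genes of the deposited tables, and all 9 had a row in each table. Polyadenylated RNA of thymocytes sorted by flow cytometry was sequenced, in 4 libraries with 1 library per group. The groups were C57BL/6 (B6) Rag1-/- thymocytes at 4 and at 7 weeks of age, and NOD Rag1-/- thymocytes at 4 and at 6.5 weeks of age, so that the Rag1 deletion was common to all of them. The RAG1 protein cuts DNA in the joining of antigen receptor gene segments, and thymocytes without it stop before the CD4 CD8 double positive stage. NOD is an inbred strain prone to autoimmune diabetes, and the series concerns leukaemia that begins in its Rag1-deficient thymus. The question was whether RNA of any of these genes was absent or reduced in NOD at week 6.5 against the other 3 libraries. Whether a library held 1 animal or a pool, the sorted surface markers, and whether the NOD week 6.5 cells had become leukaemic are not stated in the labels.

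A tumour suppressor can be lost in leukaemia by deletion, by mutation or by silencing, and its RNA reports only on changes that remove or lower the transcript. Cdkn2a and Cdkn2b lie side by side and encode inhibitors of the cyclin D kinases CDK4 and CDK6, and Cdkn2a also encodes ARF, which protects p53 from MDM2. FBXW7 marks NOTCH1, MYC and cyclin E for destruction, EZH2 and SUZ12 belong to the Polycomb repressive complex that methylates histone H3 at lysine 27, and PHF6, ETV6, CNOT3 and DNM2 act in chromatin, transcription, messenger RNA decay and membrane traffic, respectively.

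None of the 9 genes was listed at 0 in NOD week 6.5, and none of the 7 that could be tested passed a test for a difference there. That test called 0 of all 12413 genes tested, so it cannot show that the 7 were unchanged. These 7 genes had RPKM of 10.9 or more there (reads per kilobase of a gene's model, relative to sequencing depth). The 2 INK4 genes were at or near 0 in the other libraries, and the only Cdkn2a reads of the series were in NOD week 6.5. Dnm2 and Cnot3 had their lowest values in B6 week 7, not in NOD week 6.5.

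Sequencing depth, recovered from the steps of the RPKM values, was 17040000 reads for B6 week 4 and 21240000 for B6 week 7, with 17280000 for NOD week 4 and 24100000 for NOD week 6.5. Ratios of 2 libraries carry 95% exact intervals, which stand for counting error alone, and reads amplified by PCR are not separate molecules. Rag1 RNA was present in every library at RPKM of 91.7 to 132.9, and the deposited values do not show which part of the gene is deleted. Of the 8 early T cell markers all were detected in each library, with a summed RPKM of 3102 to 3781. Cd7, the least abundant of them, was at 6.29 in NOD week 6.5 and at 0.83 to 1.80 in the others, a log2 difference of 1.69 that did not pass (limma adjusted p = 0.999867). Double positive markers (5 genes) summed to 2.03 to 4.08 in the other 3 libraries and to 7.09 in NOD week 6.5, with Cd4 at 2.78 and Cd8a at 0.16. The B cell marker Ms4a1 and the thymic epithelial marker Foxn1 were at 0 in all 4 libraries, and the macrophage marker Csf1r was at 0.13 or lower. Other markers of these lists were present in every library, with Cd79b at 23.8 to 37.4, Igh-6 (now Ighm) at 11.4 to 33.8, Lyzs (now Lyz2) at 21.3 to 25.8 and Pecam1 at 18.1 to 27.3. Tacstd1, now Epcam, was at 13.2 in NOD week 6.5 and at 24.0 to 34.2 in the others, a log2 difference of -1.03 that did not pass (limma adjusted p = 0.999867). Summed over their lists, B cell markers (6 genes) were at 40.3 to 71.4, myeloid markers (8 genes) at 22.2 to 27.2, NK and innate lymphoid markers (6 genes) at 0.50 to 1.55, and stromal and epithelial markers (9 genes) at 46.3 to 71.3. Erythroid markers (6 genes) summed to 42.1 and 12.4 in B6 at weeks 4 and 7, and to 44.3 and 6.71 in NOD at weeks 4 and 6.5. There were 2 libraries that stood apart from the others. B6 week 7 had low values for most genes, and was the lowest of the 4 for 59.6% of the 12413 genes that reached an RPKM of 1 in at least 2 libraries. In NOD week 6.5 nearly every gene had some reads assigned to more than 1 place: of genes with RPKM of 10 or more, 0.034% had a shared share of 0, against 53.8% to 57.5% in the others.

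Cdkn2a, which encodes p16INK4A and ARF, had RPKM of 0 and 0 in B6 at weeks 4 and 7, and 0 and 0.26 in NOD at weeks 4 and 6.5. Those values correspond to 0, 0, 0 and 11 reads, and the 95% Poisson interval of the NOD week 6.5 value ran from 0.128 to 0.459. NOD week 6.5 was thus the only library with Cdkn2a reads, at a low level. A count of 0 allows RPKM of up to 0.0990, 0.0794 and 0.0976 in the other 3 libraries (3 reads per library), so the point value of NOD week 6.5, taken without its own interval, was at least 2.63-fold higher than B6 week 4, at least 3.27-fold higher than B6 week 7 and at least 2.66-fold higher than NOD week 4. No Cdkn2a read was assigned to more than 1 place. The longest Cdkn2a coding transcript of GENCODE M21, 895 bases, shared no run of 32 bases with transcripts of non-overlapping genes. The deposited gene model was 1.779 kb, so part of it was not searched. The same comparison over all genes gives the background. Of 10902 genes at 0 in the other 3 libraries, 7 (0.0642%) had 11 or more reads in NOD week 6.5. For B6 week 7 it was 9 of 10790 (0.0834%), for NOD week 4 it was 1 of 10693, and for B6 week 4 it was 0 of 10637. A minimum of 11 reads is reached more readily in a deeper library. At the same RPKM, 0.26 or more, the numbers were 16 for NOD week 6.5 (0.147%), 11 for NOD week 4, 9 for B6 week 7 and 8 for B6 week 4. A single library with Cdkn2a reads has no replicate check, and the share of cells that the reads came from cannot be told from these data. In sorted bulk cells, fewer cells with a transcript and less transcript per cell cannot be told apart.

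Cdkn2b, which encodes p15INK4B, had RPKM of 0.04 and 0 in B6 at weeks 4 and 7, and 0.04 and 0.10 in NOD at weeks 4 and 6.5, from 1, 0, 1 and 3 reads. None of the 4 counts exceeded 3 reads, so no fold is given. A difference between the libraries was not detectable for Cdkn2b at this depth. The double positive markers and Cd7, which also had their highest values in NOD week 6.5, moved with the Cdkn2a reads, and Tacstd1 was lowest there. Their part in the result was not tested. Neither INK4 gene reached the RPKM of 1 required for the test across genes. Without that filter 680 of 33114 genes were called higher. Cdkn2a was among them with a log2 difference of 0.33 (limma adjusted p = 8.47e-05), a p that rests on 3 identical zeros. Cdkn2b had 0.10 and did not pass.

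**Figure D1:**
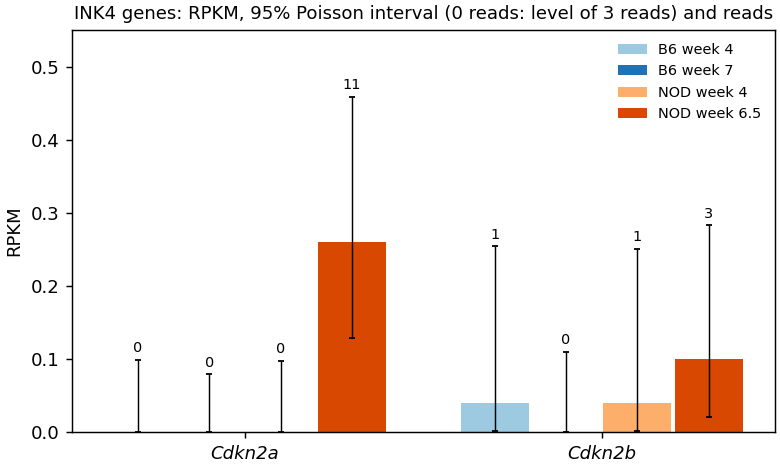
RPKM of Cdkn2a and Cdkn2b (vertical axis) in the 4 libraries, with 95% Poisson intervals of the reads as bars (up to the level of 3 reads where there were 0) and the number of reads printed above them. Cdkn2a has 11 reads in NOD week 6.5 and 0 in the other 3 libraries, and Cdkn2b has 3 reads or fewer everywhere.

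The starts of this locus are shown because 3 transcripts with separate starts bear on how the Cdkn2a reads can be read. Each window runs from 250 bases before to 50 bases after a start in the RefSeq annotation of GRCm38.p6, on the minus strand and 5′ to 3′, and capitals mark CG dinucleotides. They stand at chr4:89310983-89311282 for Cdkn2b, at chr4:89294570-89294869 for the upstream Cdkn2a start, which gives the ARF transcript, and at chr4:89282143-89282442 for the downstream Cdkn2a start, which gives the p16INK4A transcript.
Cdkn2b: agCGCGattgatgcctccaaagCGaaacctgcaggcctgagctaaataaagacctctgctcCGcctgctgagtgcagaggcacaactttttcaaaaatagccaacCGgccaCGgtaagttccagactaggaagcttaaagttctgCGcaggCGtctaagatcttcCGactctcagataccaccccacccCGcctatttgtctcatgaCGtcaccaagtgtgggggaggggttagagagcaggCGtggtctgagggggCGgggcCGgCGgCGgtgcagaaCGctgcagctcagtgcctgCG
Cdkn2a upstream start: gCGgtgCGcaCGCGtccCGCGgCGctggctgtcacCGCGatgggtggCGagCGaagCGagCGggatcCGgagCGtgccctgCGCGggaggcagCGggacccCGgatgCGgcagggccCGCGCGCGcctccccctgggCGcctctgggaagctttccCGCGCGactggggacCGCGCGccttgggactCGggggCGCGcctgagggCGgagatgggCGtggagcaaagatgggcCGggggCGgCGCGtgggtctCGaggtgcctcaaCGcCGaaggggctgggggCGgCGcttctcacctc
Cdkn2a downstream start: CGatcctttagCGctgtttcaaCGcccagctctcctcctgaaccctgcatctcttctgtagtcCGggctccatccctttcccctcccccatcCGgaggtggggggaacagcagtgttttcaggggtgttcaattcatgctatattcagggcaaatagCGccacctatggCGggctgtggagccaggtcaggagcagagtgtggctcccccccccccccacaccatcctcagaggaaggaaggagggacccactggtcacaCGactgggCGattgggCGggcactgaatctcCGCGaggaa

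The upstream Cdkn2a window held 45 CG dinucleotides, more than 98.1% of the 32851 promoter windows of the same length. The downstream Cdkn2a window held 12 and the Cdkn2b window 18, where the median window held 7 (quartiles 3 to 20). The motif TTTNGCGC, a form of the E2F site searched on both strands, occurred once in the downstream Cdkn2a window, once in that of Ezh2 and in 1.38% of all windows. The 2 Cdkn2a starts lie 12427 bases apart and share their later exons. The deposited tables give 1 value for Cdkn2a, so its 11 reads were not assigned to p16INK4A or ARF.

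The other INK4 family genes had RNA in every library. Cdkn2c, the p18INK4C gene, had RPKM of 5.04 and 8.55 in B6 at weeks 4 and 7, and 2.78 and 7.21 in NOD at weeks 4 and 6.5. Its value was higher at the later age in both strains, and the NOD week 6.5 value was within the range of the other 3 libraries. Cdkn2d, the p19INK4D gene, had 14.7, 7.09, 5.78 and 7.18 in the same order, which every run of 4 RPKM values follows, but a fraction of 0.94 to 0.98 of its reads was shared with other places, which leaves its value uncertain. Mtap, the methylthioadenosine phosphorylase gene next to Cdkn2a that is often deleted with it in human tumours, had 25.01 and 19.3 in B6 at weeks 4 and 7, and 27.0 and 27.5 in NOD at weeks 4 and 6.5. Bmi1, the Polycomb gene known to repress Cdkn2a, had 13.1, 12.1, 10.2 and 9.31, with its lowest value in NOD week 6.5 and a shared fraction of 0.32 to 0.34. Of the p53 arm, Trp53 had 72.1, 39.3, 66.9 and 66.0 and Cdkn1a, its target gene for p21, had 32.3, 19.0, 55.1 and 31.9. For Trp53 and Cdkn1a alike, the NOD week 6.5 value lay within the range of the other 3 libraries. Of the 23 genes of the INK4, p53 and RB list 21 were tested in the comparison of NOD week 6.5 with the other 3 libraries, and 0 passed in either direction by limma, as was so over all 12413 genes (0.0% called higher and 0.0% lower). The cyclin D genes showed the widest differences of this list. Ccnd3 was highest in NOD week 6.5, with 58.9, 27.5, 71.6 and 99.4, a log2 difference of 1.01 and a shared share of 29% to 37%. Ccnd2 was lowest there, with 56.4, 47.4, 38.0 and 31.1 and a log2 difference of -0.57. Neither cyclin passed the test (limma adjusted p = 0.999867 for each).

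Ezh2, the methyltransferase subunit of the Polycomb repressive complex, was the most abundant of the 9 genes per kilobase in 3 libraries. Its RPKM was 55.2 and 41.5 in B6 at weeks 4 and 7, and 47.9 and 55.4 in NOD at weeks 4 and 6.5. NOD week 6.5 lay above the other 3 libraries, but its ratio to B6 week 4 was 1.004, with an interval that held 1 (0.953 to 1.06). The log2 difference from the mean of the other 3 libraries was 0.21 with a standard error (SE) of 0.34 and an interval of -0.62 to 1.032 (limma adjusted p = 0.999867). NOD week 6.5 was the highest library for 16.9% of all 12413 genes tested. From NOD week 4 to week 6.5 the Ezh2 ratio was 1.16 (1.10 to 1.22 by counting error), while from B6 week 4 to week 7 the ratio was 0.751 (0.710 to 0.796), or 0.990 after the libraries were brought to a common median.

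Suz12, the zinc finger subunit that holds the same complex together, had RPKM of 27.4 and 26.4 in B6 at weeks 4 and 7, and 23.5 and 23.4 in NOD at weeks 4 and 6.5. Suz12 was the only tested gene of the 9 with its lowest value in NOD week 6.5, but its ratio to NOD week 4 was 0.994, with an interval that held 1 (0.935 to 1.06). NOD week 6.5 was the lowest library for 17.2% of all genes tested. The log2 difference from the other 3 libraries was -0.13 (SE 0.31, interval -0.87 to 0.60, limma adjusted p = 0.999867), a difference smaller than its standard error. After scaling to a common median the lowest value moved to NOD week 4, at 22.4 against 23.1. Both NOD values lay below both B6 values (18.7% of all genes tested). Against B6 week 4 the NOD week 6.5 ratio was 0.852 (0.803 to 0.904). Between 9% and 12% of Suz12 reads were shared, and the transcript shared 0.62% of its 32-base runs with 1 other gene, the processed pseudogene Gm14752.

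Of 11 genes listed as Polycomb repressive complex subunits and partners, 11 were tested and 0 passed in either direction (0.0% of all genes). Their median log2 difference between NOD week 6.5 and the other libraries was 0.03, beside 0.04 over all genes tested. Eed, the subunit that binds the methylated lysine, had RPKM of 22.4, 19.4, 20.2 and 21.0. Mtf2, an accessory subunit that targets the complex to DNA, had the lowest log2 difference of the list at -0.31, with 97.9, 107.6, 109.2 and 84.5. Ezh1, the paralogue of Ezh2, had the highest log2 difference at 0.19.

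Phf6, an X-linked gene for a PHD finger protein of chromatin and the nucleolus, had RPKM of 16.6 and 14.7 in B6 at weeks 4 and 7, and 12.7 and 13.8 in NOD at weeks 4 and 6.5. Its NOD week 6.5 value was within the range of the other 3 libraries. Both NOD values lay below both B6 values, as for 18.7% of all genes tested. The log2 difference of NOD week 6.5 from the others was -0.08 (SE 0.30, interval -0.81 to 0.65, limma adjusted p = 0.999867). NOD week 4 was at 0.764 of B6 week 4 (0.701 to 0.832 by counting error). Xist, the X-inactivation RNA of female cells, had RPKM of 100.1, 119.8, 20.2 and 77.9, and the Y-linked Ddx3y had 5.20, 9.85, 16.7 and 6.42, both with the 2 B6 libraries first and the earlier age first. Both transcripts were present in every library, and the part of the sex of the animals in the Phf6 values was not tested. Of the 11 NuRD genes, whose products bind PHF6, 11 were tested and 0 passed (0.0% of all genes). Their median log2 difference was 0.18 beside 0.04 over all genes. Chd3, a remodeller of that complex, had the highest log2 difference at 0.31 and the deacetylase gene Hdac1 the lowest at -0.47, with 84% to 91% of the Hdac1 reads shared.

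Etv6, a repressor of the ETS family, had RPKM of 23.9 and 17.0 in B6 at weeks 4 and 7, and 18.8 and 21.8 in NOD at weeks 4 and 6.5. Each strain had a high and a low library, and the strains overlapped. NOD week 6.5 differed from the other 3 libraries by a log2 of 0.14 (SE 0.33, interval -0.65 to 0.93, limma adjusted p = 0.999867). The later NOD library was 1.16-fold above the earlier (1.10 to 1.24 by counting error), and the later B6 library was at 0.709 of the earlier (0.667 to 0.753), or 0.934 after scaling to a common median. Of 15 ETS genes and partners 13 were tested and 0 passed (0.0% of all genes), with a median log2 difference of 0.09. Gabpa, which encodes an ETS activator, was lowest at -0.26 and Etv3, a repressor gene, highest at 0.16.

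Fbxw7, the substrate-binding subunit of an SCF ubiquitin ligase, had the smallest ratio of highest to lowest RPKM among the 7 tested genes. Its RPKM was 11 and 10.3 in B6 at weeks 4 and 7, and 10.5 and 10.9 in NOD at weeks 4 and 6.5, from 390 to 562 reads. Every ratio between 2 libraries had an interval that held 1. The highest value was 1.06 times the lowest, and 0.602% of the 7312 genes at an RPKM of at least 5 in every library had a smaller ratio. With the libraries brought to a common median, B6 week 7 became the highest at 12.2 against 9.88 to 10.7, and 24.9% of genes had a smaller ratio, so this evenness depended on the scale. On that scale the ratio of Fbxw7, 1.24, was above those of Ezh2 (1.20) and Etv6 (1.21). The log2 difference of NOD week 6.5 was 0.03 (SE 0.27, interval -0.63 to 0.69, limma adjusted p = 0.999867). Point mutations, a usual lesion of FBXW7 in T-ALL, were not analysed here.

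Of the 14 genes for SCF subunits and FBXW7 substrates, 14 were tested and 0 passed (0.0% of all genes). Their median log2 difference was 0.04, the same as over all genes. Notch1, the receptor gene most often mutated in T-ALL, had RPKM of 252.1, 139.5, 316.8 and 249.5, and Myc, its target, had 76.0, 43.5, 80.7 and 65.5. For Notch1 and Myc alike B6 week 7 was the lowest library and NOD week 6.5 lay within the range of the others. Jun, a transcription factor gene, had the lowest at -0.46 and Usp28, which encodes a deubiquitinase that opposes FBXW7, the highest log2 difference at 0.37.

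**Figure D2:**
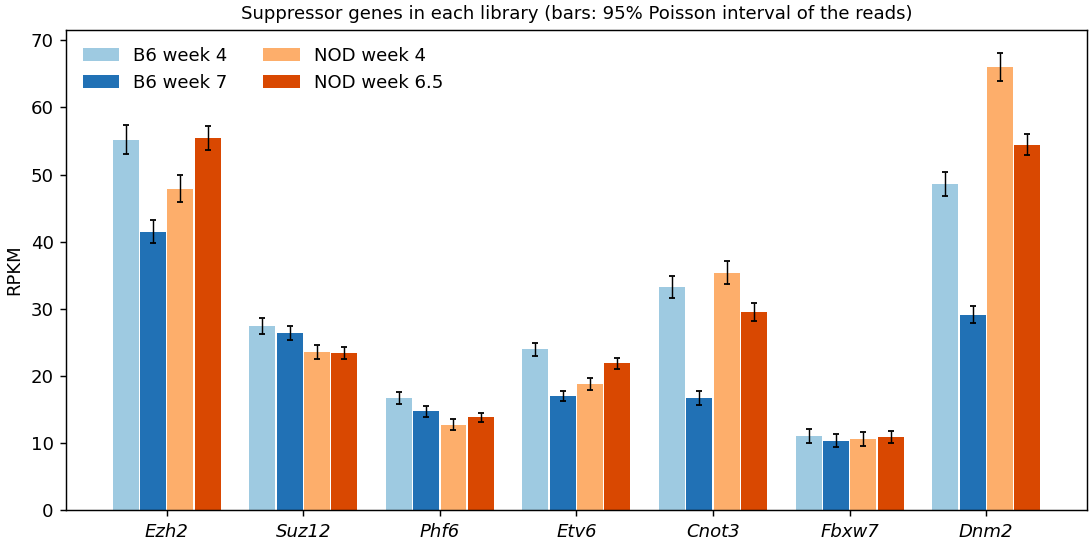
RPKM (vertical axis) of the 7 suppressor genes with appreciable RNA in each library, with 95% Poisson intervals of the reads. Fbxw7 stays between 10.3 and 11, while Dnm2 and Cnot3 are lowest in B6 week 7, at 29.1 and 16.7.

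Cnot3, a subunit of the CCR4-NOT complex that shortens poly(A) tails, had RPKM of 33.2 and 16.7 in B6 at weeks 4 and 7, and 35.4 and 29.5 in NOD at weeks 4 and 6.5. B6 week 7 was far below the other 3 libraries, at 0.503 of B6 week 4 (0.464 to 0.545 by counting error). NOD week 6.5 lay within their range, at 0.833 of NOD week 4 (0.781 to 0.889), with a log2 difference from the other 3 of 0.12 (SE 0.47, interval -1.01 to 1.25, limma adjusted p = 0.999867). Of its reads, 26% to 30% were shared with another place, the largest such share of the 9 genes.

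A copy of Cnot3 elsewhere in the genome is the place to which these reads can be compared. Of the 2791 runs of 32 bases in the longest Cnot3 transcript of GENCODE M21, 756 (27.1%) also occur in the processed pseudogene Gm9207, and in no other gene. A stretch of 120 bases of the coding sequence, transcript bases 2121 to 2240, is shown with the same stretch of the pseudogene, both from GENCODE M21 and 5′ to 3′. Capitals mark the 4 bases that differ, and any run between them is identical in both copies.
Cnot3: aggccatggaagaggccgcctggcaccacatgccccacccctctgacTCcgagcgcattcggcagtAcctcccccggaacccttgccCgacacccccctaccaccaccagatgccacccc
Gm9207: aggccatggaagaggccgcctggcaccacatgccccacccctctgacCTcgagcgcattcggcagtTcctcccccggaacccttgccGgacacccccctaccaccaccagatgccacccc

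The row of this pseudogene in the tables, LOC668500, had RPKM of 0.35 and 0.27 in B6 at weeks 4 and 7, and 0.33 and 0.25 in NOD at weeks 4 and 6.5, with 71% to 90% of its reads shared. It held 43 to 46 reads per library, beside 1003 to 2006 for Cnot3, of which 261 to 602 were shared. Counting only reads with 1 place, Cnot3 had RPKM of 23.6, 12.4, 25.1 and 20.6, so the order of the libraries was the same. Of the 14 other CCR4-NOT genes tested 0 passed (0.0% of all genes), and their median log2 difference at NOD week 6.5 was -0.06. Btg2, an antiproliferative gene whose product recruits the complex, had the lowest at -0.42, with 79.2, 71.9, 64.0 and 52.96. Rqcd1, now Cnot9, had the highest log2 difference at 0.31.

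Dnm2, the ubiquitous dynamin that cuts endocytic vesicles from the membrane, had RPKM of 48.6 and 29.1 in B6 at weeks 4 and 7, and 66.0 and 54.4 in NOD at weeks 4 and 6.5. Both NOD values lay above both B6 values (25.3% of all genes tested). The highest value was 2.27 times the lowest, a wider ratio than for 94.0% of those 7312 genes. After scaling to a common median the ratio was 1.83, wider than for 89.0% of them. NOD week 6.5 was at 0.824 of NOD week 4 (0.790 to 0.860 by counting error) and 1.87-fold above B6 week 7 (1.78 to 1.97). Against the other 3 libraries its log2 difference was 0.26 (SE 0.49, interval -0.91 to 1.42, limma adjusted p = 0.999867). Of 15 other dynamin and clathrin pathway genes 13 were tested and 0 passed (0.0% of all genes), with a median of 0.08. Il7r, the interleukin 7 receptor gene whose product is taken up through dynamin, had RPKM of 32.6, 35.9, 30.8 and 38.4, with its highest value in NOD week 6.5. The adaptor gene Ap2b1 had the highest log2 difference at 0.23 and the clathrin light chain gene Clta the lowest at -0.19.

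Across the 7 tested genes, 0 passed the test of NOD week 6.5 against the other 3 libraries, where 0 of 12413 genes did (0.0% in each direction). At an unadjusted limma p below 0.05 there were 92 genes higher (0.741%) and 39 lower (0.314%), none of them among the 7. Of all genes, 25 lay 2-fold above and 5 lay 2-fold below each of the other 3 libraries without being called, and the median half-width of the 95% interval was 0.79 on the log2 scale. The test compared 1 library with 3 that differ in strain and age, the lone library being assumed to vary like the others, and the intervals of the 7 genes reached from -1.01 to 1.42. Without the NOD week 4 library NOD week 6.5 was set against the B6 libraries alone, where strain and age cannot be told apart. The differences of the 7 genes then ran from -0.19 for Suz12 to 0.52 for Dnm2. Without B6 week 7 the differences of Cnot3 and Dnm2 turned to -0.21 and -0.06. The interval of Cnot3 holds both a 2-fold fall and a 2-fold rise, and those of Dnm2 and Ezh2 a 2-fold rise. As a description that needs no model, 0 of the 7 lay 1.5-fold below (0.29% of all genes) or 1.5-fold above (0.588%) each of the other 3 libraries. The median log2 difference was 0.12 over the 7 genes and 0.04 over all genes tested.

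**Figure D3:**
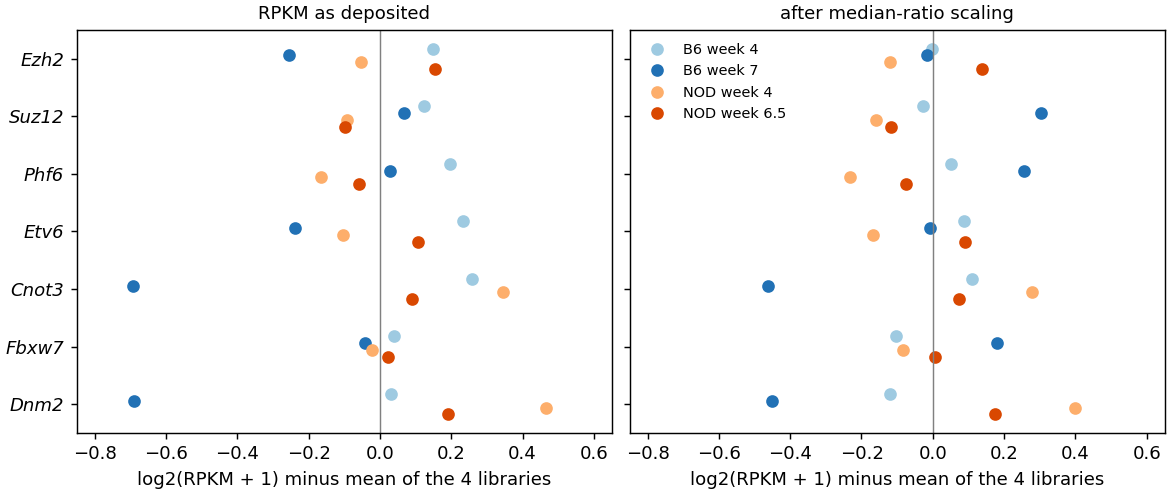
log2(RPKM + 1) of the 7 tested genes minus the mean of the 4 libraries (horizontal axis), 1 point per library, from RPKM as deposited (left) and after scaling to a common median ratio (right). B6 week 7 is the lowest point for 5 of the 7 genes on the left, and stays lowest for Cnot3 and Dnm2 on the right.

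In the comparison of the strains, with 2 libraries each, 0 of the 7 genes passed limma's test, where 345 of 12413 genes were called higher in NOD (2.78%) and 197 lower (1.59%). At an unadjusted limma p below 0.05 there were 8.23% higher and 4.45% lower, again with 0 of the 7. Dnm2 came nearest. It had a mean RPKM of 60.2 ± 8.20 (SD, n = 2) in NOD and 38.8 ± 13.8 (SD, n = 2) in B6, a log2 difference of 0.66 (SE 0.30, interval -0.04 to 1.36, limma adjusted p = 0.427). Non-overlap with NOD above held for 1 of the 7, Dnm2, and for 25.3% of all genes. Non-overlap with NOD below held for Phf6 and Suz12 and for 18.7% of all genes. For Phf6 the log2 difference was -0.22 (SE 0.21, limma adjusted p = 0.713) and for Suz12 -0.19 (SE 0.21, limma adjusted p = 0.755). The remaining 4 genes overlapped, with log2 differences of 0.003 for Fbxw7, 0.01 for Etv6, 0.10 for Ezh2 and 0.43 for Cnot3. The strain result turned on single libraries. Without B6 week 4 the differences were 1.02 for Dnm2 and 0.91 for Cnot3, and without B6 week 7 Cnot3 was at -0.04. In the former case B6 week 7 was the only B6 library left, and it was the lowest library for 59.6% of all genes. Without NOD week 4 the strain fit was the same as that of NOD week 6.5 without NOD week 4, not a second check. Dnm2 was at 0.52 there and at 0.79 without NOD week 6.5. Both comparisons used the NOD week 6.5 library, so they are not independent.

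The ages were compared within a strain by 1 library each, with no replicate check. From NOD week 4 to week 6.5, the ratio was 1.16 for Etv6 and for Ezh2, 0.833 for Cnot3 and 0.824 for Dnm2, and Fbxw7, Phf6 and Suz12 had intervals that held 1. None of the 7 was 2-fold apart on RPKM + 1, where 0.532% of genes were 2-fold higher at week 6.5 and 0.121% lower. B6 week 7 was the lowest library for 59.6% of all genes, and all 7 ratios from B6 week 4 to week 7 were below 1. They ran from 0.503 for Cnot3 to 0.961 for Suz12, and those of Fbxw7 and Suz12 had intervals that held 1. After scaling to a common median 3 of the 7 ratios lay above 1, at 1.24 for Fbxw7, 1.16 for Phf6 and 1.27 for Suz12. In that comparison 0 of the 7 were 2-fold lower on RPKM + 1 (2.94% of genes) or higher (0.185%). Between the strains at 4 weeks 0 of the 7 were 2-fold higher in NOD (2.56% of genes) or lower (2.09%), and Dnm2 was 1.36-fold higher (1.29 to 1.43). At the later ages 0 of the 7 were 2-fold higher in NOD (5.42% of genes) or lower (1.64%).

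B6 week 7 was the lowest library for 5 of the 7 genes, namely Ezh2, Etv6, Cnot3, Fbxw7 and Dnm2, beside 59.6% of all genes. The shortfall of that library went with base composition. Over 6571 genes, the Pearson correlation between the GC content of the longest coding transcript and the log2 difference of B6 week 7 from the other 3 libraries was -0.70, given as a description across genes of the same libraries. The median difference went from 0.23 for genes under 40% GC to -0.68 for genes of 56% or more. Cnot3 (57.3% GC) and Dnm2 (57.2% GC) each lay at -0.92, where genes within 2 points of their GC content had a median of -0.66. Of those genes, 12.2% and 12.4%, respectively, lay lower. Ezh2 (44.4% GC) lay at -0.34 beside a median of -0.06, with 11.8% lower. Etv6 (49.6% GC) lay at -0.32 beside -0.33, Fbxw7 (46.6% GC) at -0.06 beside -0.18, Suz12 (41.6% GC) at 0.09 beside 0.08 and Phf6 (39.1% GC) at 0.04 beside 0.18. For NOD week 6.5 the same correlation was 0.29, and the part of base composition in any value of these genes was not tested further.

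**Figure D4:**
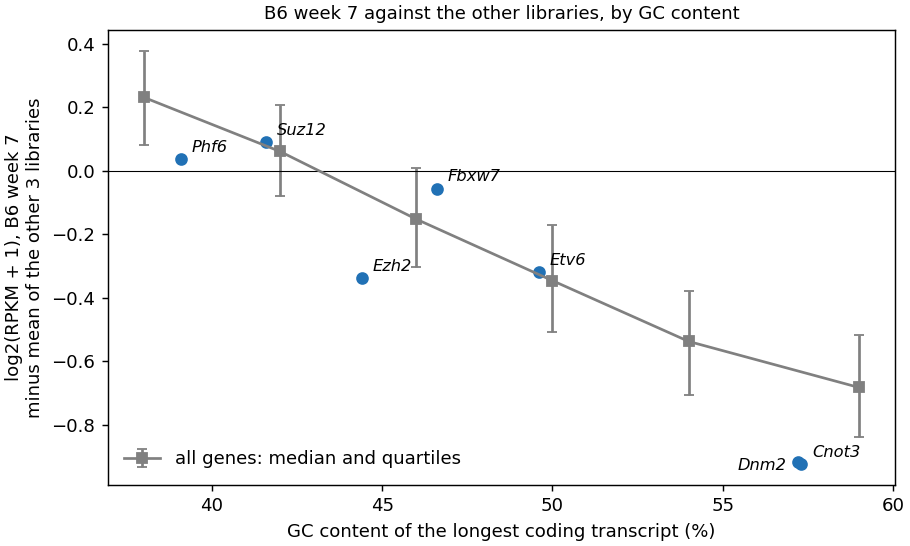
Difference of B6 week 7 from the mean of the other 3 libraries in log2(RPKM + 1) (vertical axis) against GC content (horizontal axis), with the median and quartiles of all genes per GC bin (grey, the open-ended outer bins drawn near their closed edge) and the 7 suppressor genes (blue). Cnot3 and Dnm2 lie at -0.92, below the lower quartile of genes with like GC content, and Etv6 and Suz12 lie on the medians.

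Of 24 cell cycle genes 21 were lowest in B6 week 7, beside 59.6% of all genes, and after scaling to a common median 18 were, beside 34.5%. As deposited, their summed RPKM was 1234 and 642 in B6 at weeks 4 and 7, and 924 and 1019 in NOD at weeks 4 and 6.5, and after scaling it was 1109, 760, 880 and 1006. As deposited, Ezh2, known as an E2F target in dividing cells, had the same order of libraries apart from its highest value. After scaling Ezh2 had 49.6, 49.1, 45.6 and 54.7, lowest in NOD week 4, while the summed cell cycle RPKM stayed lowest in B6 week 7. Of the 24, 24 were tested at NOD week 6.5 and 0 passed (0.0% of all genes), with a median log2 difference of 0.15. The replication licensing gene Cdc6 had the highest log2 difference at 0.58 and the kinetochore motor gene Cenpe the lowest at -0.26.

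The genes with the most similar pattern over the 4 libraries were found by Euclidean distance of centred log2(RPKM + 1) among genes that reached an RPKM of 5 in every library with under 10% shared reads. For Ezh2 they were Zfp367 (distance 0.03), with RPKM of 7.94, 5.61, 6.79 and 7.89, and Rfc1 (0.04). For Dnm2 they were Pcnxl3, now Pcnx3 (0.02), with 18.0, 10.4, 24.6 and 19.8, and Atp13a1 (0.05). For Cnot3 they were Fcho1 (0.04), with 70.7, 37.1, 76.2 and 61.8, and Wiz (0.05). Etv6 was nearest to Extl3 (0.05) and Lrrc8c (0.05), Phf6 to Ppil3 (0.02) and Scye1, now Aimp1 (0.02), Fbxw7 to 5830417C01Rik, now Desi2 (0.02), and Pik3ca (0.02), and Suz12 to Utp11l, now Utp11 (0.01), and D18Ertd653e, now Ldlrad4 (0.02). With 4 libraries such nearness is common, and between 21 genes for Dnm2 and 150 for Fbxw7 lay within a distance of 0.1. For Cdkn2a (Sh3kbp1 and Pde7a) and Cdkn2b (St3gal4 and Tdrd3) the levels were too low for a pattern to be compared.

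Other genes recurrently lost in T-ALL were set beside these. Of 25 listed 23 were tested and 0 passed, where the test called 0.0% of all genes in each direction. Their median log2 difference at NOD week 6.5 was -0.003. Asxl1, a chromatin regulator gene, had the lowest at -0.31, with RPKM of 31.7, 22.8, 12.9 and 16.8, so that the lowest value was in NOD week 4. Lef1, a transcription factor gene of early T cells, had the highest log2 difference at 0.47, with 62.04, 40.1, 107.9 and 89.9. Asxl1 had both NOD values below both B6 values (18.7% of all genes), and Lef1 had both above (25.3%). The strain difference did not pass for either (limma adjusted p = 0.192 for Asxl1 and 0.170 for Lef1).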

How the data were processed

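The members and gene lists were chosen with earlier results of these data known. The submitters' processing notes name Bowtie 0.12.1 and the mm9 build. Per the file headers, the authors deposited for each gene an RPKM value, a gene length in kilobases, and the fraction of its reads that map to more than 1 place, called the shared share. Strand, read counting and the handling of shared reads are not stated there. Depth was recovered as that at which values of short genes (under 0.6 kb) are whole reads, which held for 98.8% to 100% of them within 0.1 reads. Regions without a gene name (0.28% to 0.53% of reads) were left out.

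Tests were two-sided and used limma 3.58.1 (R 4.3.3) after a log2 transform of RPKM with a pseudocount of 1, with an intensity trend and Benjamini-Hochberg adjustment over the 12413 genes that reached an RPKM of 1 in at least 2 libraries, called at 0.05. With 1 library per group and 2 residual degrees of freedom, p-values measure only the spread between these libraries. Fold changes on this scale understate changes of low genes. On simulated data for 12413 genes, the comparison of NOD week 6.5 recovered 97% of 2-fold and 100% of 4-fold changes with 7 false calls, and that of the strains 100% of each with 14. In the real data at NOD week 6.5, 25 genes lay 2-fold above and 5 lay 2-fold below each of the other 3 libraries. The test called 0 of them, and the median half-width of its intervals was 0.79 on the log2 scale. The simulated recovery therefore cannot be read as the share of real 2-fold changes that would be called. Named genes were all 9 members, the lowest and highest difference at NOD week 6.5 in each pathway list, and the 2 most similar genes of each member. Cdkn2c, Cdkn2d, Mtap, Bmi1, Trp53, Cdkn1a, Eed, Notch1, Myc, Il7r, Rag1, Xist, Ddx3y and the cell type markers named were added after their values were seen. Promoters came from RefSeq (GRCm38.p6), which held 8 of the 9 members, and transcripts from GENCODE M21. Alternatives were another pseudocount, no filter, 2 scalings, reads with 1 place, an age block and leaving out libraries.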

Additional observations from a re-analysis of the deposited data

Results flagged for a closer look

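Etv6 and Ezh2 lay higher at the later age in NOD and lower at the later age in B6. For Etv6 the log2 change from the earlier to the later library was higher in NOD than in B6 by 0.68, and for Ezh2 by 0.61. The counting intervals of both genes lay above 1 in NOD and below 1 in B6. With 1 library per strain and age the difference was not tested. After scaling to a common median the B6 ratios were 0.934 for Etv6 and 0.990 for Ezh2.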

How the results depend on the processing

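For the 7 tested genes and NOD week 6.5 against the others, 51 of 56 recomputed log2 differences kept their direction and 0 passed the test. Fbxw7 turned to -0.0082 with quantile normalization and -0.0087 with reads of 1 place only. Leaving out 1 library gave -0.17 to 0.012 for Phf6, -0.21 to 0.31 for Cnot3 and -0.057 to 0.52 for Dnm2, each with one end of the range without NOD week 4 and the other without B6 week 4 (Phf6) or B6 week 7. Between the strains 55 of 70 were the same. Fbxw7 and Etv6 turned to -0.078 and -0.078 with median-ratio scaling, -0.11 and -0.11 with quantile normalization, and -0.017 and -0.023 with reads of 1 place. Leaving out 1 library gave -0.038 to 0.044 for Fbxw7, -0.23 to 0.24 for Etv6, -0.041 to 0.91 for Cnot3 and -0.098 to 0.31 for Ezh2, lowest without B6 week 7 and highest without B6 week 4. Dnm2 was at 1.02 without B6 week 4, a fit in which B6 week 7 was the only B6 library. The causes were not tested.

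Genes 1.5-fold below and above all others at NOD week 6.5 (36 and 73) numbered 99 and 116 with a pseudocount of 0.1, 5 and 25 at 2-fold, 129 above without the filter, and 45 to 365 below and 80 to 394 above without 1 library. The test called 680 of 33114 genes higher and 49 lower without the filter. There Cdkn2a had a log2 difference of 0.33 (limma adjusted p = 8.47e-05, from 3 identical zeros), and Cdkn2b had 0.10 and did not pass. Without 1 library it called 0 to 144 higher and 0 to 123 lower, the highest without NOD week 4. The strain test called 135 and 75 without the filter, 665 and 340 with age as a block, and 140 to 3271 higher and 123 to 433 lower without 1 library. Pairs of libraries with a pseudocount of 0.1 gave 124 genes 2-fold higher and 80 lower (NOD week 6.5 against week 4), 1125 and 328 (NOD week 6.5 against B6 week 7), 68 and 759 (B6 week 7 against week 4), and 515 and 404 (NOD against B6 at week 4). With median-ratio scaling the comparisons of B6 week 7 with NOD week 6.5 and with B6 week 4 became 422 and 315, and 100 and 69. No paired analysis was possible because the labels number no replicates, and the block above pairs libraries by age class alone. Depth limits Cdkn2a and Cdkn2b most, at 3 reads or fewer in all but 1 library.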
